A study of Mus musculus with 12 samples.

Results

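The 10 endothelial genes Pecam1, Cdh5, Kdr, Flt1, Tek, Tie1, Eng, Emcn, Plvap and Vwf were taken by symbol from tables of 47643 genes, and each matched a single row. They were measured by bulk poly(A) RNA sequencing of 12 tumor pieces from the pancreatic tumor line KPC4662, which derives from a mouse model of ductal adenocarcinoma. The labels put 6 libraries in a Young tumor group and 6 in an Old tumor group, which is read here as the age group of the host. All 12 share the cell line, and the labels give no other difference between the groups. The labels used here give no age in weeks, strain, sex, site of implantation or agent, and they do not say whether the pieces came from separate mice. The p-values below therefore measure the spread between these pieces. KPC4662 is a single line, and the labels call the cell type epithelial. A piece of tumor also holds the vessels of the host, so a gene of those vessels is read here as a share of the RNA of the whole piece. In such bulk samples fewer endothelial cells and less of a transcript per endothelial cell cannot be told apart.

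Endothelial cells line every blood vessel. They join through adherens junctions built on VE-cadherin, the product of Cdh5, and through PECAM1, and they take growth signals through VEGF receptors (Kdr, Flt1), the angiopoietin receptor Tek with its relative Tie1, and the BMP co-receptor endoglin (Eng). Emcn codes for endomucin, a sialomucin of capillary and venous endothelium, Plvap for the diaphragm protein of fenestrated capillaries, and Vwf for von Willebrand factor, the adhesive protein that captures platelets. Pancreatic ductal adenocarcinoma is known as a tumor with dense stroma and few open vessels.

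The expected counts of a library summed to between 17754645 (Old tumor 6) and 24097599 (Old tumor 5), with each sum rounded to a whole number. Old tumor 1 was the highest library for 9 of the 10 genes, and the log2 fold changes of those 9 are given with and without it. Of 16013 genes tested with edgeR's quasi-likelihood model, 362 had an adjusted p under 0.05 (2.26%), 127 higher (0.793%) and 235 lower (1.47%) in old tumors, and the median log2 fold change of all genes tested was 0.03. The split depends on the scaling: it was 152 higher and 143 lower with scaling by total counts, 291 and 48 on log2(TPM + 1), with a median over all genes of 0.13, and 15 and 96 with the trend over transcript length removed from each library.

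Of the 10 genes, 9 lay higher in old than in young tumors on average, by 1.35-fold (Plvap) to 2.12-fold (Cdh5), and Flt1 lay at 0.92-fold. None of the 10 passed an adjusted p of 0.05 over all genes with edgeR or limma-voom, and 2 passed with DESeq2, Cdh5 and Vwf. Over all genes DESeq2 called 8.99% and limma-voom 6.10%. At an unadjusted p under 0.05 edgeR held 4 of the 10 as higher (Cdh5, Vwf, Eng and Kdr), against 10.7% of all genes tested. In either direction, 21.1% of all genes tested had an unadjusted p under 0.05 with edgeR. Counts at this p in the lists below are of higher genes unless lower is stated. The log2 fold change was above 0 for 9 of 10 genes, against 54.2% of all genes, and past 1.5-fold for 5 of 10, against 6.02%. Single libraries moved these counts. Without Old tumor 1, 2 of 10 were past 1.5-fold and 2 had an unadjusted p under 0.05 (Cdh5 and Vwf for both), and without Old tumor 4 these counts were 9 and 7. The count above 0 was 9 of 10 with each single library left out. All 10 passed the filter on low counts. Their median log2 fold change was 0.59 with all libraries, 0.29 without Old tumor 1 and 0.23 without both Old tumor 1 and Old tumor 5. Since most pairs among 9 of the genes were correlated from piece to piece, as shown further on, these counts are not separate observations.

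**Figure D1:**
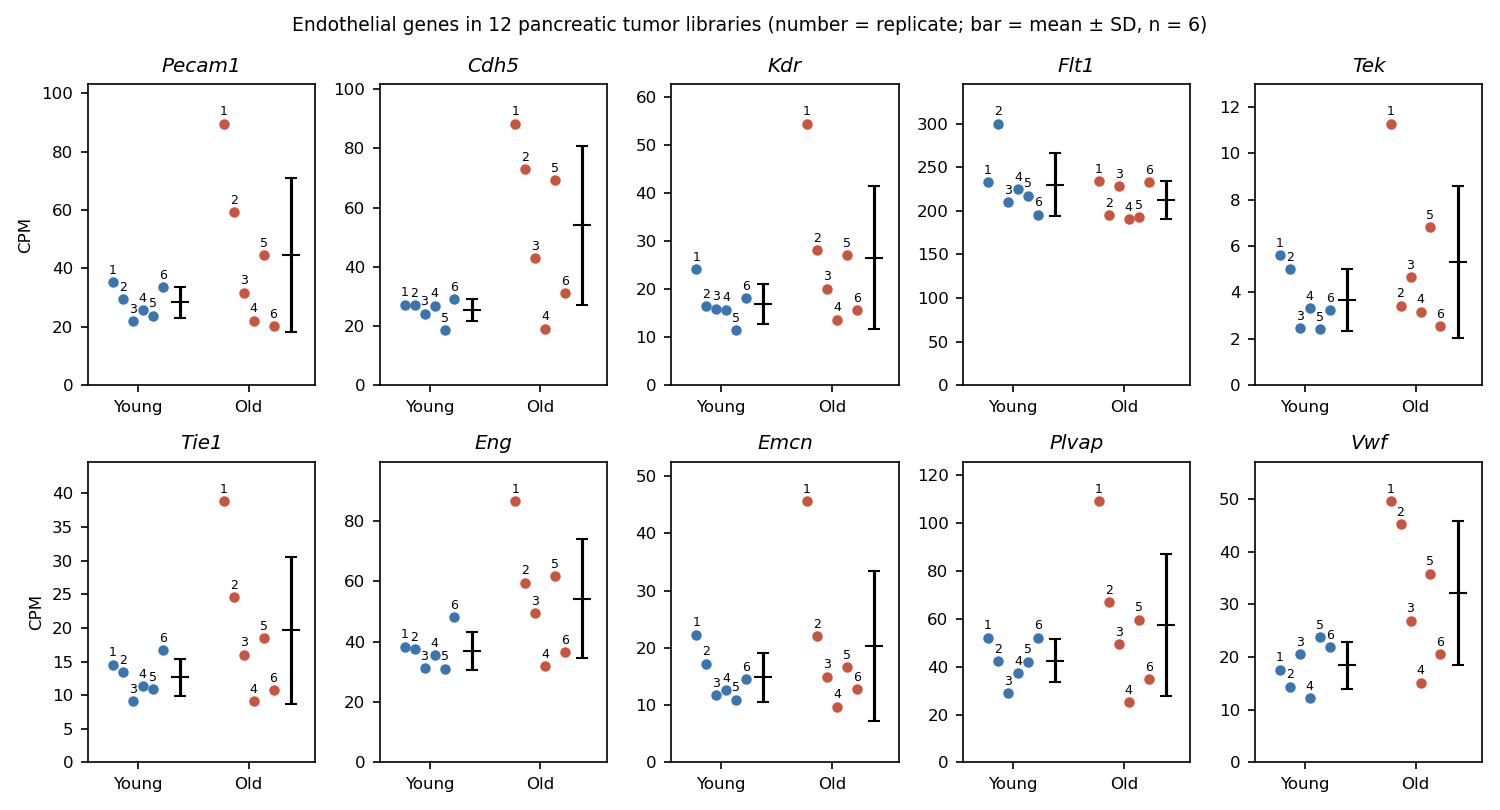
Each panel plots the CPM (counts scaled to a fixed library size, with TMM factors) of a gene in the 6 young (blue) and 6 old (red) libraries, numbered by replicate, with the mean and SD of each group as a black bar; every axis starts at 0. Old tumor 1 is the highest library for every gene but Flt1, and Old tumor 4 lies among the young libraries or below them.

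Of the junction genes, Cdh5 had the largest difference of all 10. Levels below are in CPM, and coordinates are of mm10. Cdh5 (ENSMUSG00000031871; chromosome 8, 104101625 to 104144511) ran from 18.6 to 28.9 CPM in young tumors, with a median of 26.9, and from 19.1 to 88.3 CPM in old tumors, with a median of 56.1. In 5 of 6 old libraries Cdh5 lay above every young library, and Old tumor 4 was the exception. The means of Cdh5 were 25.4 ± 3.71 and 53.9 ± 26.9 CPM (SD, n = 6 each). Its log2 fold change came to 1.08 with a 95% interval of 0.44 to 1.72 (SE 0.30, edgeR adjusted p = 0.067). The adjusted p of Cdh5 ran from 0.0056 with DESeq2 to 0.20 over the alternatives, and was 0.045 without Old tumor 4 (log2 fold change 1.26) and 0.073 without Old tumor 1 (0.87). Pecam1 (ENSMUSG00000020717; chromosome 11, 106654217 to 106750628) ran from 22.0 to 35.3 CPM in young tumors, with a median of 27.6, and from 20.1 to 89.6 CPM in old tumors, with a median of 38.1. Its ages overlapped: Old tumor 1, Old tumor 2 and Old tumor 5 lay above every young library and Old tumor 6 below every one. The log2 fold change of Pecam1 was 0.65 (SE 0.31, with an adjusted p of 0.25 from edgeR), and it was 0.31 without Old tumor 1.

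The VEGF receptors differed in their pattern over the libraries. Kdr, the main signalling receptor for VEGF-A in endothelium (ENSMUSG00000062960; chromosome 5, 75932827 to 75978458), ran from 11.4 to 24.1 CPM in young tumors, with a median of 16.2, and from 13.6 to 54.4 CPM in old tumors, with a median of 23.6. Old tumor 1, Old tumor 2 and Old tumor 5 were above every young library for Kdr, and the other 3 old libraries lay within the young range. For Kdr the log2 fold change was 0.65 (adjusted p = 0.23 with edgeR, SE 0.29), and 0.29 without Old tumor 1. Flt1, which binds VEGF-A more tightly and signals less, and which also yields a soluble form (ENSMUSG00000029648; chromosome 5, 147561604 to 147726011), ran from 195 to 299.99 CPM in young tumors, with a median of 221, and from 190 to 234 CPM in old tumors, with a median of 212. For Flt1 no old library lay above the young range and 3 lay just below it. Its log2 fold change was −0.12 (SE 0.10, 95% interval −0.34 to 0.10, edgeR adjusted p = 0.54). That estimate of Flt1 was 0.01 on log2(TPM + 1) and −0.29 with the length trend of each library removed (edgeR adjusted p = 0.17), so its direction depends on the scaling. Gene-level counts do not separate the soluble from the membrane form.

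The RefSeq windows before the start sites of these genes were in the reference for 6 of the 10 (Kdr, Flt1, Tek, Tie1, Eng and Emcn). Those of Kdr, Flt1 and Eng are shown because Kdr and Eng belong to the genes that were correlated with each other and Flt1 does not. Each runs 5′ to 3′ on the strand of the gene from 250 to 21 bases before the start (GRCm38.p6), at chr5:75978476-75978705 (minus strand) for Kdr, chr5:147726032-147726261 (minus strand) for Flt1 and chr2:32646345-32646574 (plus strand) for Eng. Capitals mark 4 motifs that were searched on both strands. AGGAAG holds the core that ETS factors recognise. TATAAA is the element bound by TBP of the basal machinery. TGACGTCA is the cyclic AMP response element. GGGCGG is the box bound by Sp factors.
Kdr: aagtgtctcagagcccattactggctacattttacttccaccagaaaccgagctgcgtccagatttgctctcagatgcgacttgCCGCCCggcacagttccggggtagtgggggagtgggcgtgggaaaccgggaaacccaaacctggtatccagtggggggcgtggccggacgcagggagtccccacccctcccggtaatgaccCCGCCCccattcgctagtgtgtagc
Flt1: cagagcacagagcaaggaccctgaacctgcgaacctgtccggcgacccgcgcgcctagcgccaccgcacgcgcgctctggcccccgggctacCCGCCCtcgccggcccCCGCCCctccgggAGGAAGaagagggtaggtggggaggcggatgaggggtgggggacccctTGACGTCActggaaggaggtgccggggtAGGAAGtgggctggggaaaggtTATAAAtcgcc
Eng: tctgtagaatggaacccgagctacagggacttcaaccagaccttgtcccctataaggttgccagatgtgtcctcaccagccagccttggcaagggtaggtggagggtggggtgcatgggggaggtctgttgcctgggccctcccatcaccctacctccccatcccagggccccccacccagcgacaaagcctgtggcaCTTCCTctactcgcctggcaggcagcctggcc
The Flt1 window holds AGGAAG at 2 places, the reverse of GGGCGG at 2, and the TATAAA and cyclic AMP elements once each. The Kdr window holds GGGCGG in reverse at 2 places and none of the other motifs, and the Eng window holds AGGAAG in reverse at 1. Among the 6 genes with a window, AGGAAG is in 4 (27.2% of 32851 promoter windows of this length hold it), GGGCGG in 2 (29.8%), TATAAA (11.8%) is in that of Flt1 alone, and so is TGACGTCA (1.28%). A match describes letters in this window and is no evidence of binding.

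Tek had the lowest level of the 10. This receptor of the angiopoietins (ENSMUSG00000006386; chromosome 4, 94739289 to 94874976) ran from 2.41 to 5.62 CPM in young tumors, with a median of 3.29, and from 2.54 to 11.3 CPM in old tumors, with a median of 4.05. It rested on 46 to 271 counts per library. Only Old tumor 1 and Old tumor 5 exceeded the young range of Tek. For Tek the log2 fold change was 0.54 (adjusted p = 0.41 with edgeR, SE 0.36), 0.15 without Old tumor 1 and −0.08 without both Old tumor 1 and Old tumor 5. Tie1, which pairs with Tek and tunes its signal (ENSMUSG00000033191; chromosome 4, 118471191 to 118490061), ran from 9.11 to 16.7 CPM in young tumors, with a median of 12.4, and from 9.09 to 38.9 CPM in old tumors, with a median of 17.3. As for Kdr, Old tumor 1, Old tumor 2 and Old tumor 5 lay above every young library of Tie1, and Old tumor 4 just below every one. Its log2 fold change was 0.63 (adjusted p = 0.25 with edgeR, SE 0.30), and 0.30 without Old tumor 1.

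Eng (ENSMUSG00000026814; chromosome 2, 32646595 to 32682669) ran from 31.0 to 48.2 CPM in young tumors, with a median of 36.4, and from 31.9 to 86.6 CPM in old tumors, with a median of 54.4. In 4 old libraries Eng exceeded every young one, and the remaining Old tumor 4 and Old tumor 6 lay inside the young range. For Eng the log2 fold change was 0.55 (SE 0.21, 95% interval 0.108 to 1.001, edgeR adjusted p = 0.15), and 0.35 without Old tumor 1. Fpgs overlaps Eng on the opposite strand, Gtpbp3 overlaps Plvap, and Gm29682, not analysed here, overlaps Cdh5. Fpgs had 439 to 869 and Gtpbp3 372 to 613 counts per library. The strand setting of the authors' counting is not given in the sources used here, so reads of these overlaps may not be told apart.

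Emcn and Plvap had the smallest log2 fold changes among the 9 in the edgeR fit with all libraries. On log2(TPM + 1) and with limma-voom the smallest was that of Tek, at 0.351 and 0.289. Emcn (ENSMUSG00000054690; chromosome 3, 137341067 to 137432185) ran from 10.9 to 22.3 CPM in young tumors, with a median of 13.6, and from 9.75 to 45.6 CPM in old tumors, with a median of 15.8. Old tumor 1 was the only old library above the young range of Emcn, and Old tumor 4 lay below it. Its log2 fold change was 0.45 (adjusted p = 0.45 with edgeR, SE 0.33), and 0.02 without Old tumor 1. Plvap (ENSMUSG00000034845; chromosome 8, 71497765 to 71511752) ran from 29.0 to 52.2 CPM in young tumors, with a median of 42.3, and from 25.2 to 109.3 CPM in old tumors, with a median of 54.6. Old tumor 1, Old tumor 2 and Old tumor 5 lay above the young range of Plvap and Old tumor 4 below it. The log2 fold change of Plvap was 0.44 (adjusted p = 0.40 with edgeR, SE 0.28), and 0.13 without Old tumor 1.

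Vwf (ENSMUSG00000001930; chromosome 6, 125546774 to 125686679) ran from 12.2 to 23.8 CPM in young tumors, with a median of 19.1, and from 15.1 to 49.7 CPM in old tumors, with a median of 31.4. In 4 old libraries Vwf exceeded every young library, and Old tumor 4 and Old tumor 6 lay inside the young range. For Vwf the log2 fold change was 0.81 (SE 0.27, 95% interval 0.23 to 1.38, edgeR adjusted p = 0.11), and 0.62 without Old tumor 1. With DESeq2 the adjusted p of Vwf was 0.032, at a log2 fold change of 0.80, and over all alternatives it ran from 0.032 to 0.35. Vwf has a long transcript, and with the length trend of each library removed its log2 fold change was 0.60 (edgeR adjusted p = 0.28). Megakaryocytes and platelets make von Willebrand factor too. Of the 8 platelet genes listed, Gp9 and Gp6 had at most 6 counts in any library, and the 8 summed to 11.1 to 16.2 CPM in young and 12.4 to 26.9 CPM in old tumors. Ppbp, Gp1ba and Pf4, granule and receptor genes of platelets, had log2 fold changes of 0.96 (SE 0.54), 0.39 (SE 0.27) and 0.34 (SE 0.32). None of the 5 tested passed with edgeR (0 at an unadjusted p under 0.05), and the median was 0.34, or −0.04 without Old tumor 1. Their part in the Vwf level was not tested.

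The CPM ranges of the ages overlapped for all 10 genes. Over all genes tested, 0.999% had every old library above every young one and 1.97% every old library below. The spread over all 6 libraries of an age was wider in old than in young tumors for 9 of the genes. Old tumor 1 was the highest library for each of these 9, and the SD was not computed without it. As a percent of the mean, the SD of Cdh5 was 14.6% in young and 49.96% in old tumors, that of Emcn 28.7% and 64.5%, and that of Pecam1 19.0% and 59.5%. Flt1 went the other way, at 15.9% in young and 10.2% in old tumors. Old tumor 1 aside, the old libraries of Emcn ran from 9.75 to 22.0 CPM, against 10.9 to 22.3 CPM in young tumors. Those of Cdh5 ran from 19.1 to 73.0 CPM, against 18.6 to 28.9 CPM. For Pecam1 they ran from 20.1 to 59.3 CPM, against 22.0 to 35.3 CPM. The difference in spread was not tested.

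**Figure D2:**
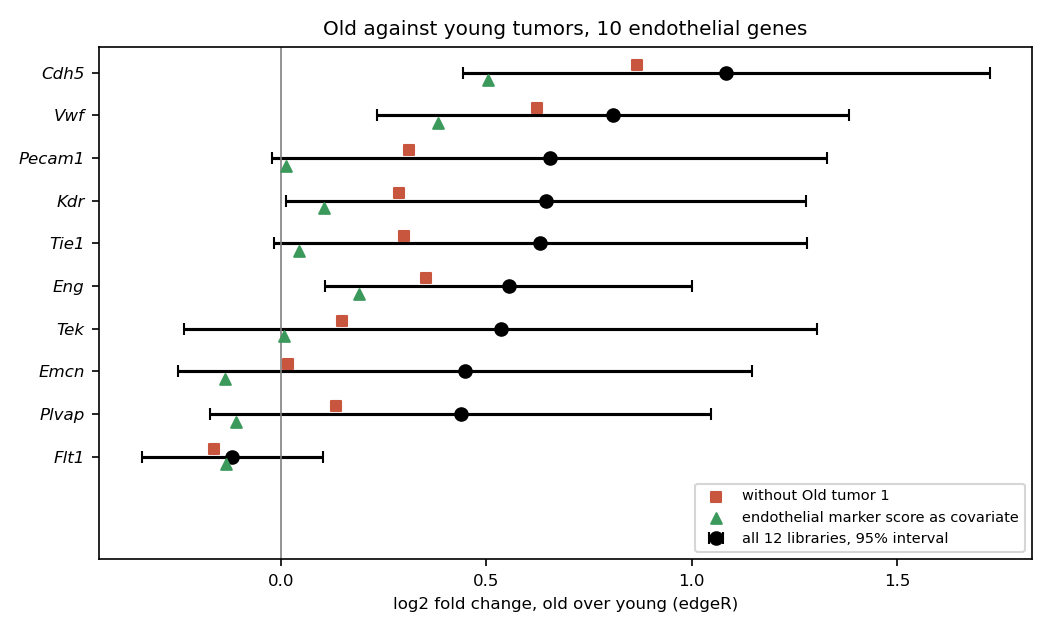
Black points are the log2 fold changes of old over young tumors from edgeR with all 12 libraries, with 95% intervals; red squares leave out Old tumor 1, and green triangles add the mean of 20 other endothelial markers as a covariate. Cdh5 lies farthest right in each of the 3 fits, and Flt1 is the only gene below 0 in the fit with all libraries.

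Per unit of transcript length the 10 genes spanned a wide range. In TPM (abundance per transcript length, scaled to a fixed sum, which allows levels of different genes to be set side by side), Flt1 was at 55.0 ± 7.02, Plvap at 41.2 ± 19.3, Eng at 24.3 ± 9.80, Emcn at 21.4 ± 12.8, Pecam1 at 19.0 ± 10.9, Vwf at 17.9 ± 7.77, Cdh5 at 16.4 ± 10.3, Tie1 at 6.45 ± 3.53, Kdr at 5.96 ± 3.29 and Tek at 1.59 ± 0.92 (SD, n = 12 each). Some neighbours kept their order in every library: Plvap stood above Eng, Cdh5 above Tie1 and Kdr above Tek in 12 of 12. Flt1 exceeded Plvap in all 6 young but only 3 of 6 old libraries. Between Eng and Cdh5 the order of neighbours was not stable, with the higher gene ahead in 9, 9, 9 and 6 of 12 libraries down the series, and Tie1 exceeded Kdr in 7 of 12. The ratio of Flt1 to Kdr in TPM ran from 8.85 to 17.6 in young tumors and from 3.93 to 13.7 in old tumors. Tie1 stood at 2.90 to 5.88 times Tek in young and 3.03 to 7.92 times in old tumors.

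The 9 genes other than Flt1 shared their highest library. The 9 genes summed to 97.1 to 143 TPM in young tumors. In old tumors they summed to 349 TPM in Old tumor 1, 233 in Old tumor 2, 206 in Old tumor 5, 154 in Old tumor 3, 122 in Old tumor 6 and 88.7 in Old tumor 4. Old tumor 1 was the highest of the 12 libraries for each of the 9 genes. Old tumor 2 and Old tumor 5 were among the top 3 for 8 of 9, and Old tumor 4 among the lowest 3 for 8 of 9. Flt1 did not follow: Old tumor 1 had 59.4 TPM of Flt1 and Old tumor 6 had 62.5, while the other 9 genes differed by 2.85-fold between them.

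**Figure D3:**
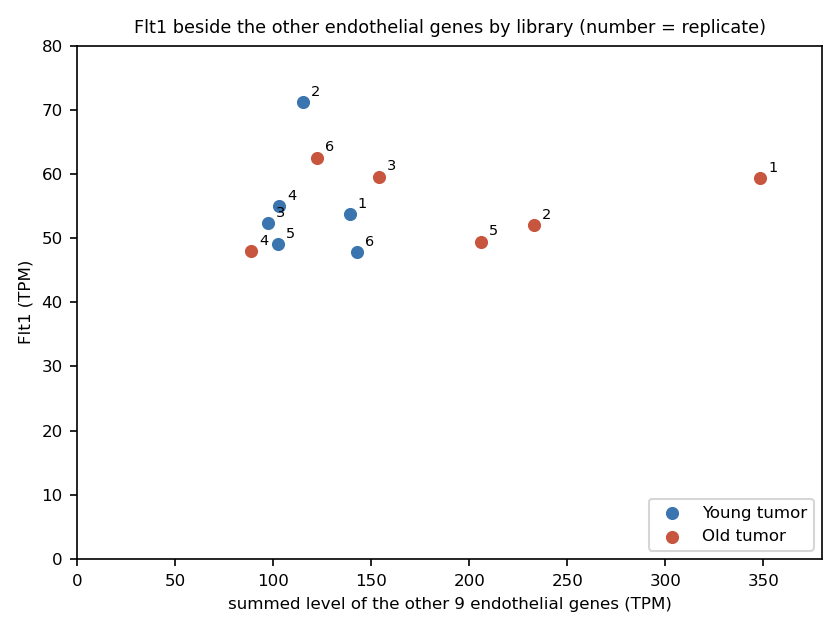
Each point is a library, numbered by replicate (blue young, red old), with the summed TPM of the other 9 endothelial genes on the x axis and the TPM of Flt1 on the y axis. The sum runs from 88.7 to 349 TPM while Flt1 stays between 47.8 and 71.2 TPM.

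Correlations put numbers on this. They were computed on log2 CPM after each age's mean was taken off, over 12 libraries, for all 45 pairs of the 10 genes, with 100000 permutations of libraries within an age. Among the 36 pairs without Flt1, Pearson's r ran from 0.37 to 0.98 with a median of 0.88, and Spearman's rho from 0.31 to 0.97. At an adjusted permutation p of 0.05 over the 45 pairs, 32 passed by Pearson's r and 27 by Spearman's rho. The share that would pass among pairs of other genes was not computed. The tightest pair was Tie1 with Plvap (r = 0.98, rho = 0.97, permutation p = 2e-05, adjusted p = 0.00045 and for rho 0.00054), where r was 0.95 without the 2 libraries farthest from the median of Tie1. The loosest pair was Tek with Vwf (r = 0.37, rho = 0.31, permutation p = 0.33, adjusted p = 0.39), with r at −0.04 without the 2 farthest libraries. Among the 9 pairs with Flt1, r ran from −0.18 to 0.39 and rho from −0.08 to 0.36, and 0 passed (the smallest permutation p was 0.20, for Tek). Without Old tumor 1, 21 of the 45 pairs passed by Pearson's r in place of 32. Without the 2 libraries farthest from the median of the first gene of a pair, r over the 36 pairs ran from −0.04 to 0.96 with a median of 0.70. Such correlation was not particular to endothelial genes. On the same age-centred scale, the mean of the 9 genes had an r of 0.929 with the mean of the fibroblast genes described below. With the mural and macrophage means r was 0.895 and 0.865, and with that of tumor epithelium −0.587.

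The correlations of Vwf had other values in each age. Over the 6 old libraries its r with the other 8 genes (Flt1 aside) ran from 0.68 with Tek to 0.99 with Cdh5. Over the 6 young libraries it ran from −0.52 with Tek to 0.12 with Plvap. Young tumor 5 had the highest young Vwf, at 23.8 CPM, and the lowest young Cdh5, at 18.6 CPM. The difference between ages in these correlations was not tested, and each rests on 6 pieces.

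**Figure D4:**
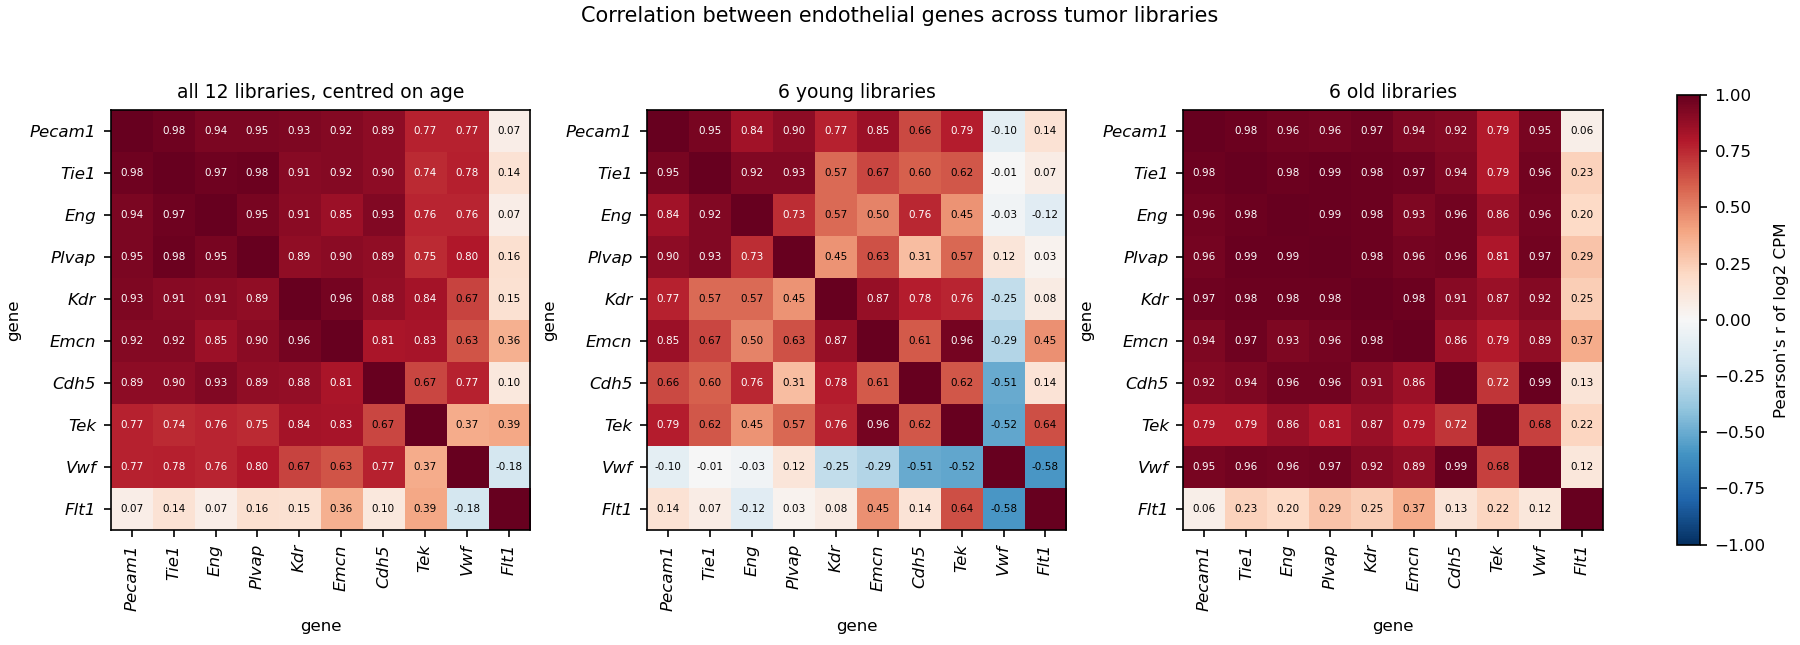
The 3 grids give Pearson's r of log2 CPM for each pair of genes over all 12 libraries after centring on age (left), over the 6 young (middle) and over the 6 old libraries (right), from −1 in blue to 1 in red. The column of Flt1 is pale in the left and right grids, and that of Vwf turns from pale or blue in young to red in old libraries.

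Set against the mean log2 CPM of the other 8 genes (Flt1 left out of the mean), some genes stood at other levels in old than in young tumors, with no test of these differences. Cdh5 stood 0.54 ± 0.21 above that mean in young and 0.99 ± 0.31 above it in old tumors (SD, n = 6 each), with 4 of 6 old libraries beyond the highest young one. Emcn stood at −0.36 ± 0.22 and −0.60 ± 0.24, with 3 of 6 old libraries below the lowest young one. Plvap stood at 1.36 ± 0.20 and 1.13 ± 0.099, and none of the 6 old libraries lay above the young median. Vwf stood at −0.01 ± 0.52 and 0.23 ± 0.23, with all 6 old libraries above the young median and none beyond the young range. Pecam1, Kdr, Tie1 and Eng differed by −0.05 to 0.01 between the ages on this scale, and Tek by −0.12. Flt1, set against the mean of all 9 others, stood at 3.65 ± 0.29 in young and 3.03 ± 0.70 in old tumors, a difference of −0.62, with 3 of 6 old libraries below the lowest young one. Flt1 on its own had an edgeR log2 fold change of −0.12, while the 9 genes of that mean lay higher in old tumors. Which cells carry the Flt1 RNA was not tested, so this difference is no measure of Flt1 per endothelial cell. In TPM the ratio of Cdh5 to Emcn ran from 0.41 to 0.73 in young and from 0.62 to 1.39 in old tumors.

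A fit over all genes with the mean log2 CPM of 20 other endothelial markers as a covariate was added after the data were seen. It gave each gene its own slope on that mean, so its values are not the same measure as the differences above. There Cdh5 had a log2 fold change of 0.50 (adjusted p = 0.065 with edgeR, SE 0.15) and Vwf one of 0.38 (adjusted p = 0.29 with edgeR, SE 0.21). Eng was at 0.19 (adjusted p = 0.17 with edgeR, SE 0.079), and Pecam1, Tie1, Tek and Kdr at 0.01, 0.04, 0.01 and 0.11. Emcn and Plvap were at −0.14 and −0.11. Flt1 was at −0.13 (adjusted p = 0.51 with edgeR, SE 0.11), against −0.12 without the covariate. None of the 10 passed in that fit, in which 899 of 16013 genes did.

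Most other endothelial markers lay on the same side of 0 as the 9 genes. Of 20 markers, 19 had a log2 fold change above 0, none passed with edgeR (7 were higher and 1 lower at an unadjusted p under 0.05, and none passed with limma-voom but Ecscr), and the median was 0.49, or 0.22 without Old tumor 1. Robo4, a guidance receptor of vessels, was at 0.93 (SE 0.34), Ramp2, which pairs with the adrenomedullin receptor, at 0.72 (SE 0.265), and Cd93, a C-type lectin-like receptor, at 0.89 (SE 0.34), with adjusted p from edgeR of 0.14, 0.14 and 0.15. With DESeq2 Robo4 passed at an adjusted p of 0.0499. Ecscr, an endothelial surface regulator, was the exception at −0.45 (adjusted p = 0.17 with edgeR, SE 0.18), and passed without Old tumor 1 (−0.62, edgeR adjusted p = 0.032) and with limma-voom (−0.58, adjusted p = 0.031). Of 15 transcription factors of endothelium, 13 were above 0 and none passed with edgeR (4 at an unadjusted p under 0.05), with a median of 0.36, or 0.18 without Old tumor 1. Sox17, an arterial factor, was at 0.84 (SE 0.28), Epas1, the hypoxia-inducible factor 2 alpha gene, at 0.42 (SE 0.16), and Sox18 at 0.75 (SE 0.33), with adjusted p from edgeR of 0.11, 0.16 and 0.22. Sox17 passed with DESeq2 (adjusted p = 0.040). Without Old tumor 1 Ramp2 was at 0.41 and Sox18 at 0.43.

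The ligands of the receptors lay on both sides of 0. Vegfa, the ligand of Kdr and Flt1, was at 619 ± 187 CPM in young tumors and at 662 ± 151 CPM in old ones (6 libraries each), with a log2 fold change of 0.10, SE 0.19 and adjusted p = 0.81 from edgeR. Vegfb and Pgf, which bind Flt1, were at −0.01 (SE 0.083) and −0.13 (SE 0.29). Of the 8 VEGF genes, 4 were above 0 and none passed with edgeR (2 at an unadjusted p under 0.05), with a median of 0.05, or 0.02 without Old tumor 1. Figf, now called Vegfd, was at 0.83 (SE 0.32), Nrp1, a co-receptor of Kdr, at 0.21 (SE 0.088), and Vegfc at −0.26 (SE 0.16). Without Old tumor 1 Figf was at 0.34, Vegfa at 0.04 and Pgf at −0.27. The 4 genes of the angiopoietin pathway were all above 0, with none past the threshold (2 at an unadjusted p under 0.05) and a median of 0.42. Angpt2, the context-dependent Tek ligand of activated endothelium, was at 0.39 (SE 0.30), Angpt4 at 0.65 (SE 0.25), and Ptprb, the phosphatase that restrains Tek, at 0.46 (SE 0.17). Gdf2 and Bmp10, which code for the ligands of the endoglin complex, had at most 2 counts in any library. Acvrl1, the type I receptor beside endoglin, was at 0.55 (adjusted p = 0.21 with edgeR, SE 0.24), Bmpr2, the type II receptor, at 0.07 (SE 0.068), and the target gene Id2 at −0.21 (SE 0.091). None of the 7 tested genes of that pathway passed (1 higher and 1 lower at an unadjusted p under 0.05). Their median was 0.07, or 0.04 without Old tumor 1, where Acvrl1 was at 0.30.

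Notch1 was the one gene of these lists past an adjusted p of 0.05 with edgeR. It went from 37.7 ± 4.68 to 51.5 ± 7.63 CPM (SD, n = 6 each), which is 0.45 on the log2 scale (adjusted p = 0.048 with edgeR, SE 0.11), with every old library above every young one. Notch1 is not confined to vessels, and its call was lost with the length trend removed (log2 fold change 0.27, edgeR adjusted p = 0.18) and without any single library other than Young tumor 3 or Old tumor 1 (edgeR adjusted p up to 0.0997). Notch4, the Notch receptor of endothelium, was at 0.65 (adjusted p = 0.083 with edgeR, SE 0.19), and passed with DESeq2 (adjusted p = 0.019). Gja4, an arterial gap junction gene, was at 0.59 (SE 0.27). Of the 11 Notch and arterial genes 8 were above 0, with a median of 0.39, or 0.18 without Old tumor 1, where Gja4 was at 0.23. Of 10 tip cell genes 6 were above 0 and none passed with edgeR (1 at an unadjusted p under 0.05), with a median of 0.18, or 0.06 without Old tumor 1. Apln, the apelin gene, was at 1.12 (SE 0.56), Esm1 at 0.86 (SE 0.52) and Nid2 at 0.64 (SE 0.29; 0.34 without Old tumor 1), while Dll4 was at −0.24 (SE 0.24).

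Genes by which vessels bind leukocytes lay on both sides of 0. Of the 6 tested adhesion genes 3 were above 0, none passed with edgeR (2 lower at an unadjusted p under 0.05), and the median was −0.07. Vcam1 was at −0.37 (SE 0.15), Icam1 at −0.36 (SE 0.19) and F11r at −0.17 (SE 0.073). These genes are also made by tumor cells, fibroblasts and leukocytes. Ackr1, Selp and Ephb4 of the venous list were at 0.49 (SE 0.74), 0.05 (SE 0.45) and −0.06 (SE 0.096), with a median of 0.03 over 4 genes and 0 genes past an unadjusted p of 0.05. Without Old tumor 1 that median was −0.07, with Ackr1 at −0.30. Among haemostasis genes, the partner of von Willebrand factor in plasma, F8, was at 0.75 (adjusted p = 0.11 with edgeR, SE 0.25), Thbd, thrombomodulin, at 0.60 (SE 0.22; 0.30 without Old tumor 1), and F3, tissue factor, at −0.27 (SE 0.19). None of the 7 passed (2 at an unadjusted p under 0.05), with a median of −0.01. Adamts13, the protease that cuts von Willebrand factor, had at most 4 counts in any library. Of 6 lymphatic genes 4 were above 0 and 0 had an unadjusted p under 0.05. Pdpn was at 0.67 (SE 0.33), Mmrn1 at 0.63 (SE 0.83) and Ccl21a at 0.43 (SE 0.90), and the list's median was 0.33, or −0.21 without Old tumor 1. Without that library these 3 genes were at 0.26, 0.21 and −0.11.

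**Figure D5:**
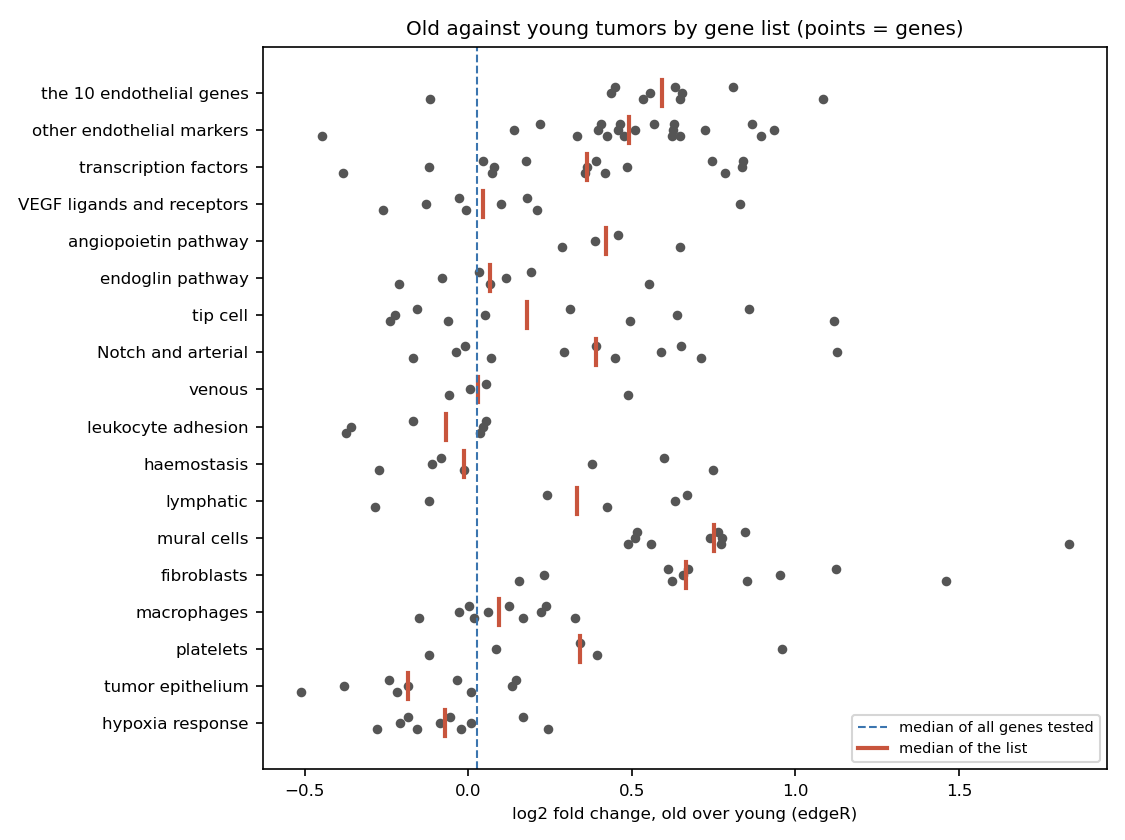
Each point is the log2 fold change of a gene, old over young tumors, with a red bar at the median of its list and a dashed blue line at the median of all genes tested (0.03). The 10 endothelial genes (median 0.59), other endothelial markers (0.49), mural cells (0.75) and fibroblasts (0.66) lie to the right, and leukocyte adhesion (−0.07), tumor epithelium (−0.18) and hypoxia genes (−0.07) lie at or left of the line.

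Markers of mural cells and fibroblasts were highest in the same library as the endothelial genes, Old tumor 1. All 10 mural genes were above 0 with none past the threshold in edgeR (5 at an unadjusted p under 0.05), and they summed to 203 to 302 CPM in young and 190 to 914 CPM in old tumors. Notch3, the Notch receptor of pericytes, was at 0.77 (adjusted p = 0.089 with edgeR, SE 0.24), Abcc9 at 0.76 (SE 0.26) and Cspg4 at 0.56 (SE 0.24). Notch3 and Abcc9 passed with DESeq2 (adjusted p of 0.024 and 0.038). The median of the mural list was 0.75, or 0.28 without Old tumor 1, where Notch3 was at 0.48. All 10 fibroblast genes were above 0 too (1 at an unadjusted p under 0.05 and none past the threshold in edgeR), and they summed to 1423 to 3560 CPM in young and 1248 to 9619 CPM in old tumors. Pdgfra, Dcn and Col1a1 were at 0.95 (SE 0.42), 1.12 (SE 0.55) and 0.67 (SE 0.36), and the list's median was 0.66 with and 0.13 without Old tumor 1. Without that library these 3 genes were at 0.40, 0.13 and 0.25. Macrophage genes, whose cells can express Pecam1, Eng and Flt1, summed to 553 to 913 CPM in young and 514 to 1247 CPM in old tumors, with a median log2 fold change of 0.09, or −0.11 without Old tumor 1. Their 3 genes of smallest p, Ms4a7, Adgre1 and Cd68, were at 0.24 (SE 0.14), 0.33 (SE 0.25) and 0.22 (SE 0.18), and without Old tumor 1 at 0.14, 0.02 and 0.05. Old tumor 1 was the highest and Old tumor 4 the lowest old library for the mural, fibroblast and macrophage sums alike. Tumor epithelium genes had the opposite order in those libraries, with the lowest old sum in Old tumor 1 (5160 CPM) and the highest in Old tumor 4 (8311 CPM). Sox9, Krt18 and Cldn4 of that list were at −0.24 (SE 0.097), −0.22 (SE 0.11) and −0.51 (SE 0.33), with 3 of 9 genes above 0, none past the threshold in edgeR (1 lower at an unadjusted p under 0.05) and a median of −0.18. The part of these cell types in the endothelial values was not tested.

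Low oxygen induces Vegfa and the glycolytic genes of the hypoxia list. That list had a median of −0.07, or −0.15 without Old tumor 1, with 3 of 10 above 0, 1 lower at an unadjusted p under 0.05 and none past the threshold in edgeR. Pgk1, Ldha and Pdk1 were at −0.28 (SE 0.12), −0.21 (SE 0.11) and 0.17 (SE 0.16). Of the 10 acinar genes of normal pancreas only Cela1 and Amy2a5 passed the filter, at −0.21 (SE 0.30) and −2.63 (SE 1.22), and the 10 summed to 12.1 to 62.8 CPM in young and 12.2 to 18.9 CPM in old tumors. The 6 islet genes summed to 2.27 to 114.6 CPM in young and 0.77 to 91.9 CPM in old tumors. Chga, Gcg and Ins2 of that list were at 1.44 (SE 0.91), 0.90 (SE 0.96) and −0.33 (SE 1.22), and 0 of the 5 tested had an unadjusted p under 0.05.

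The 10 genes with the highest likeness to the mean of the endothelial genes, by Pearson's r of age-centred log2 CPM over 12 libraries, were Lama4, Fam167b, Cd34, Acvrl1, Mmrn2, Bmper, Gng2, Clec1a, Esam and Sparcl1. Their r ran from 0.96 to 0.98 and their rho from 0.90 to 0.97, out of 12917 genes compared, and without the 2 farthest libraries r ran from 0.88 to 0.94. They were picked for this value, so it is a description with no test. Cd34, Mmrn2 and Esam were on the list of other endothelial markers and Acvrl1 on the endoglin list. Lama4, a laminin chain of vessel basement membrane, had a log2 fold change of 0.73 (adjusted p = 0.22 with edgeR, SE 0.32), and Gng2 one of 0.09 (adjusted p = 0.82 with edgeR, SE 0.19). Against the mean of the others in the group (Flt1 left out), Flt1 itself had an r of 0.16 and a rho of 0.17, and r was −0.26 without the 2 farthest libraries. For Tie1, Pecam1, Plvap, Eng and Kdr that r was 0.97, 0.97, 0.96, 0.96 and 0.95, for Emcn and Cdh5 0.93 and 0.91, and for Tek and Vwf 0.76 and 0.73. Of the genes compared, 61.43% had a lower r to the mean of the endothelial genes than the r of Flt1. That share was 92.75% for Vwf, 94.12% for Tek and 99.23% to 99.98% for the rest.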

How the data were processed

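RNA came from pieces of tumor, with poly(A) selection and a directional library kit, per the labels' protocols. Reads were processed with cutadapt 2.3, STAR 2.7.0d and RSEM 1.3.1 on build mm10, per the submitters' processing notes. Neither annotation nor strand setting is given in the sources used here. For 47643 genes in 12 libraries the authors deposited TPM and expected counts. The expected counts were rounded to whole numbers. The deposited TPM served to compare levels between genes and as an alternative scale.

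Old and young tumors were compared with edgeR 4.0.16 (R 4.3.3): filterByExpr, TMM scaling and a two-sided quasi-likelihood F test, with Benjamini-Hochberg adjustment over 16013 genes. The SE is the size of the log2 fold change over the square root of F. Log2 CPM used a prior count of 2. Correlations used permutations within an age (numpy 2.4.6). Coordinates and exon lengths came from GENCODE M21 (GRCm38), which held 47224 of the gene IDs. A fit with the endothelial marker score as a covariate was added after the data were seen. The length correction fits a natural spline with 4 degrees of freedom in each library. DESeq2 1.42.0 and limma 3.58.1 were alternatives. On data simulated for old against young over 16013 genes, edgeR recovered 46% of genes changed by 1.5-fold and 70% by 2-fold, and 8.67% of the genes it called had not been changed. The simulation drew each gene independently, with the same dispersion in both ages. The endothelial genes were correlated and mostly spread wider in old tumors, so these rates may not hold for them.

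The labels give same-numbered young and old libraries a replicate number and state no pairing, so the main fit used no block. A fit with a block on that number was run as an alternative. The members and the gene lists were chosen with earlier results of these data known. Named are all 10 endothelial genes, each list's genes past the threshold or else its 3 of smallest p, and the 10 most alike. Vegfa, Vegfb, Pgf, Angpt2, Dll4, Ecscr and genes near 0 counts are named for their role or sign, after their values were seen. Library totals and replicate numbers limit the precision: Tek rested on 46 to 271 counts. A gene of the platelet list is not reported here by name.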

Additional observations from a re-analysis of the deposited data

Results flagged for a closer look

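Kdr and Emcn in Old tumor 1 and Flt1 in Young tumor 2 lay far from the other libraries of their age, by a gap test at the 95% level. Kdr was at 54.4 CPM in Old tumor 1, and the next old library had 28.1 CPM. Emcn was at 45.6 CPM in Old tumor 1, and the next had 22.0 CPM. Flt1 was at 299.99 CPM in Young tumor 2, and the next young library had 233 CPM. With 20 groups looked at (10 genes in each age), chance flags about 1 group in 20.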

How the results depend on the processing

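The count of endothelial genes past the threshold was 0 of 10 with edgeR (4 at an unadjusted p under 0.05). It was 2 with DESeq2 and 1 at an adjusted p of 0.1, and 0 to 1 with each library left out (1 without Old tumor 4, Cdh5), and 0 under the other alternatives run. The count past 1.5-fold, 5 of 10, was 2 with limma-voom, the replicate block, the length trend removed or the acinar score, and 0 with the endothelial marker score. Without Old tumor 1 and Old tumor 5 together, 8 of 10 were above 0, 1 was past 1.5-fold and 1 was higher at an unadjusted p under 0.05 (edgeR). With the acinar score 1 was higher at that p. The 10 genes under 27 alternatives each gave 270 values, of which 261 kept their direction and side of the threshold, 4 newly passed and 5 reversed. The reversals were Flt1 at 0.0129 on log2(TPM + 1) and 0.0131 on log2(TPM + 0.1), Tek at −0.075 without Old tumor 1 and Old tumor 5 together, and Emcn at −0.14 and Plvap at −0.11 with the endothelial marker score as a covariate. With each library left out, the log2 fold change ran from 0.87 to 1.26 for Cdh5, 0.62 to 0.95 for Vwf, 0.35 to 0.67 for Eng, 0.31 to 0.81 for Pecam1 and 0.02 to 0.60 for Emcn. The lowest of each of these came without Old tumor 1.

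The count of related genes past the threshold was 1 (Notch1) of 157 tested, where edgeR called 2.26% of all genes. It was 6 of 157 with DESeq2 (8.99% of all genes) and 2 of 157 with limma-voom (6.10% of all genes). The count was 3 at an adjusted p of 0.1. It was 0 without a filter, on log2(TPM + 1), with a replicate block, with the length trend removed and without Old tumor 1 and Old tumor 5 together. It was also 0 with the acinar score as a covariate, which rested on 2 tested genes. With each library left out it ran from 0 to 2. The cause was not tested. The count of pairs correlated by Pearson's r was 32 and ran from 21 (without Old tumor 1) to 34 with each library left out. Over all genes, edgeR called 362, and between 2 and 1106 with each library left out, 1439 with DESeq2, 977 with limma-voom, 151 without a filter, 111 with the length trend removed, 742 without Old tumor 1 and Old tumor 5 together, 899 with the endothelial marker score, and 1 each with the replicate block and the acinar score.

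Same-numbered libraries correlated at −0.23 to 0.14 over all genes, and 2 of 6 young libraries correlated best with the old library of their number. The labels do not say what the numbers stand for. Such correlations cannot decide whether the numbers pair the pieces. With the replicate block 0 of the 10 endothelial genes and 0 related genes passed.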
